A study of Saccharomyces cerevisiae with 24 samples.

Results

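In diploid budding yeast cells of 55 fL, many general stress transcripts and some storage sugar transcripts were lower than in cells of 50 fL. With all 6 libraries, 8 transcripts passed the test as higher and 198 as lower. Without the second replicate of each size, which stood apart from its mates, the same test gave 1515 higher and 1506 lower. Leaving out libraries because they differ narrows the spread, so those counts are descriptions. Leaving out any of replicates 1 and 3 gave 0 higher and at most 1 lower. The size step is covered by 6 of the 24 libraries of the size series. The 55 fL group holds replicate 1 (55.9 fL), replicate 2 (53.9 fL) and replicate 3 (56.4 fL), and the 50 fL group holds replicate 1 (51.4 fL), replicate 2 (49.5 fL) and replicate 3 (50.2 fL). The replicate numbers follow the order of the samples and are not in the labels. An equal number in both sizes does not mark a shared culture or batch. They were chosen by their size labels and not by any measured transcript, and all 7032 features of the count table entered. The cells of both groups were wild type, of the laboratory strain BY4743, and grew in rich YPD medium with glucose. Elutriation, a flow centrifuge that separates cells by size, delivered G1 cells. These were left to grow on to the wanted size, stopped with cycloheximide and sodium azide, frozen, and combined with other cultures of like size. Each library is therefore rRNA-depleted total RNA of a pool of cultures, and a p-value here measures the spread between 3 such pools per size. Larger cells had also been longer in culture after elutriation, so size and time after elutriation cannot be told apart, and neither can the cultures that went into each pool. No extraction or sequencing batch is labelled.

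The 6 libraries held 16103753 to 18426417 counts. URA3 and LEU2, which this strain lacks, had 0 counts in 6 of 6 libraries, which allows up to 0.186 CPM (a gene's counts scaled to a common library total) at the lowest depth when 3 counts are taken as the limit of a count of 0, for counting error only. HIS3, which BY4743 lacks only in part, had 324 to 498 counts (18.5 to 30.3 CPM). Haploid-specific genes, which diploid cells keep low, were low in both groups. The 18 of them summed to 216 to 220 CPM at 55 fL and to 192 to 217 CPM at 50 fL. Meiosis genes, which growing cells keep low, were low as well. The 13 of them summed to 178 to 188 CPM at 55 fL and to 152 to 177 CPM at 50 fL. Shares of the RNA classes were close: small nucleolar RNAs took 2.38% ± 0.0879 of the counts at 55 fL and 2.40% ± 0.0631 at 50 fL (SD, n = 3 each), with a two-sided exact permutation p of 0.7 (adjusted over 6 classes, 0.84), where 3 against 3 cannot go below 0.1. CPM is a share of a library, so less RNA of a gene per cell and fewer cells that express it cannot be told apart.

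Yeast meets heat, oxidants, osmotic shock and the approach of starvation with one shared programme, the general or environmental stress response. The related zinc finger activators Msn2 and Msn4 enter the nucleus when protein kinase A activity is low and bind the stress response element, the letters AGGGG or, on the other strand, CCCCT. Their targets encode catalase, small heat shock proteins, aldehyde and sugar phosphate enzymes and the enzymes of the storage sugars trehalose and glycogen. When growth on glucose is fast the programme is low, and genes for making ribosomes tend to run opposite to it.

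The stretches upstream of 4 genes of that programme, the members of the general stress list with the largest falls, and of ANB1, the largest rise among genes that average 10 CPM or more, show which letters stood there. Each is the 200 bases from 300 to 101 bases before the start codon, read 5′ to 3′ on the gene's strand from the RefSeq genome of build R64. Capitals mark AGGGG or CCCCT in the first 4 and ATTGTTC, the core letters bound by the hypoxic repressor Rox1, in ANB1.
PHM7 (chrXV:162056-162255, plus strand): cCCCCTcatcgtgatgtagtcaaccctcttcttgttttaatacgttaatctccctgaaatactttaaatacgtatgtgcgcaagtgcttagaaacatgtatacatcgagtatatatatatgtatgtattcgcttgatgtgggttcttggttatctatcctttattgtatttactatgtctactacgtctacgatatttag
ALD3 (chrXIII:600973-601172, minus strand): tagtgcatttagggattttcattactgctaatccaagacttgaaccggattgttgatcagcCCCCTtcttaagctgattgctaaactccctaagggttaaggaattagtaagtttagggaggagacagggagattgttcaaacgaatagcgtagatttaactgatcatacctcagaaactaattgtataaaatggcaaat
NQM1 (chrVII:581537-581736, minus strand): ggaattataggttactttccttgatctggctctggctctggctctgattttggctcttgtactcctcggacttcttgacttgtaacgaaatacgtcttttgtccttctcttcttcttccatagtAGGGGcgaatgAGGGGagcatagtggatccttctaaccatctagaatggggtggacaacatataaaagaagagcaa
DDR2 (chrXV:231856-232055, minus strand): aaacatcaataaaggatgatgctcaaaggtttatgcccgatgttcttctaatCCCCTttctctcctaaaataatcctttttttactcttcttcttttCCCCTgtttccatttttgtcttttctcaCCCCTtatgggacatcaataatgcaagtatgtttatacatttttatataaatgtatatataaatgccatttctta
ANB1 (chrX:525482-525681, minus strand): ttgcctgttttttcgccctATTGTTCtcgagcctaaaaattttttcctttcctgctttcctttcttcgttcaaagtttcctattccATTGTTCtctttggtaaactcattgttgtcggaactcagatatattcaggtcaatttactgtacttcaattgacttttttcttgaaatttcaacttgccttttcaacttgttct
DDR2 held 3 copies of the element, NQM1 held 2, and PHM7 and ALD3 held 1 each. AGGGG or CCCCT, on either strand, stood in 109 of the 198 genes that fell (55.1%) and in 0 of the 8 that rose, against 972 of all 5894 protein-coding genes with such a window (16.5%). Of the 32 general stress genes 25 held the letters (78.1%), and many of that list are known as Msn2 and Msn4 targets from other work. ATTGTTC or its reverse complement GAACAAT stood in 2 of the 8 genes that rose, against 288 of the 5894 windows (4.89%). A match of letters is a description and not evidence of binding.

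Replicate 2 of each size stood apart from the other two. The distance between libraries was taken as the root mean square difference in log2 CPM over 6402 genes. Replicates 1 and 3 lay 0.33 apart at 55 fL and 0.35 apart at 50 fL. Replicate 2 lay 0.63 and 0.51 from its mates at 55 fL and 0.69 and 0.67 from its mates at 50 fL. Between the sizes the pairs lay 0.52 to 0.86 apart. The nearest library to 55 fL replicate 2 was a 60 fL one (60.8 fL, 0.38), and the nearest to 50 fL replicate 2 was a 45 fL one (44.4 fL, 0.29). Both replicates 2 are the smallest by label within their group. Replicates 1 and 3 of each size were nearest to each other. Next came a 60 fL library for replicates 1 and 3 of 50 fL (0.42 and 0.49). For replicates 1 and 3 of 55 fL it was a 45 fL library (43.0 fL, 0.41 and 0.35). By the nearest library of another size, replicates 1 and 3 were thus further out of size order than the replicates 2. These distances do not show which libraries are typical of their size. The median SD of a gene on the log2 scale was 0.22 at 55 fL and 0.23 at 50 fL, where the other 6 sizes had 0.085 to 0.21. Every library is therefore shown for the genes the results turn on, and the list counts that change are given with all 6 libraries and without both replicates 2.

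With all 6 libraries, 206 of 6251 tested genes passed edgeR's quasi-likelihood test at a Benjamini-Hochberg adjusted p under 0.05 (3.30%), of which 198 fell (3.17%) and 8 rose (0.128%) at 55 fL relative to 50 fL. In all 206 the 3 libraries of one size lay wholly on one side of the other 3. Of the 198, 138 fell at least 2-fold and 33 at least 4-fold, and 5 of the 8 rose at least 2-fold. Libraries that do not overlap were not rare by themselves, since 1160 genes (18.6%) lay lower in each 55 fL library than in each 50 fL library and 535 (8.56%) higher. The counts were 135 with RLE and 122 with upper quartile factors, and 0 with labelled size as a continuous term (1091 at an unadjusted p under 0.05). Leaving out any of replicates 1 and 3 ended nearly all adjusted calls. When 55 fL replicate 3 or either of replicates 1 and 3 of 50 fL was left out, no gene passed in edgeR's quasi-likelihood test, although 826, 936 and 826 genes had an unadjusted p under 0.05, and without 55 fL replicate 1 CPP3 alone passed. In each of these reduced fits, all 206 genes kept their sign and an unadjusted p under 0.05. The sign was all but fixed, since the libraries of these genes do not overlap between the sizes. The genes had also been chosen for a small p in the libraries that remained, so neither count is independent support. Limma-voom called 0 to 41 genes and DESeq2 244 to 358 in the same 4 reduced sets. Without both replicates 2, 3021 of 6277 genes passed (48.1%), 1515 up and 1506 down, and all 206 were among them in the same direction. The replicates 2 were left out for differing from their mates in these same values, which narrows the spread that remains. Counts and adjusted p-values of that set, here and below, are therefore descriptions and not independent support.

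**Figure D1:**
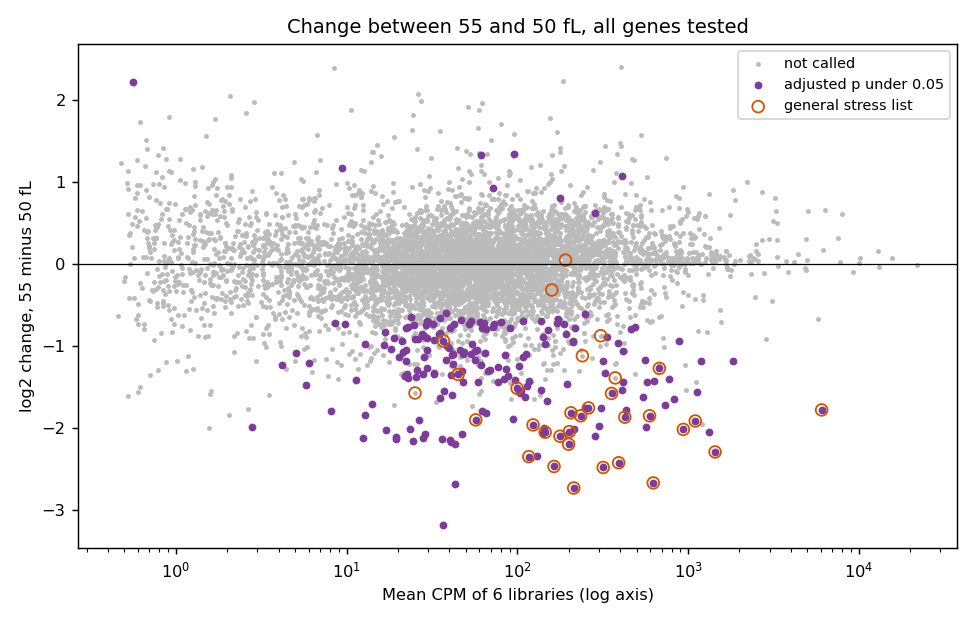
Log2 change at 55 relative to 50 fL against mean CPM (log axis) for the 6251 tested genes, grey where not called, purple where called, with orange rings around the 32 members of the general stress list. Called genes lie almost all below 0, with 198 falls and 8 rises, and the ringed genes make up many of the largest falls among abundant transcripts.

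Most of the general stress list fell. Of its 32 tested members 25 fell and 0 rose, where 3.17% of all tested genes fell, with a list median of -1.86 on the log2 scale against 0.01 for all genes. In 30 of the 32 every 55 fL library lay below every 50 fL library (18.6% of all genes). As a mean over the list, the 55 fL libraries stood at -0.55, 0.10 and -0.31 relative to the average of the 24 libraries, and the 50 fL libraries at 1.66, 1.42 and 1.54, which were the 3 highest of the 24. Without both replicates 2 the list median was -2.32 and 30 members fell, where 24.0% of all genes fell. Its count of falls was 0 when any of replicates 1 and 3 of either size was left out, and 19 and 17 with RLE and upper quartile factors. The list was drawn up with earlier results of these data known.

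PHM7, a gene of unknown function with several predicted membrane spans (YOL084W, chromosome XV, 162356 to 165331), had 49.5, 66.7 and 52.2 CPM in the 55 fL libraries, against 415, 363 and 338 CPM in the 50 fL libraries. The libraries of one size lay far from those of the other, a 6.63-fold difference, with a log2 change of -2.73 ± 0.18 (SE, adjusted p = 0.00929). ALD3, a cytoplasmic aldehyde dehydrogenase (YMR169C, chromosome XIII, 599352 to 600872), had 126, 206 and 178 CPM in the 55 fL libraries, against 1273, 966 and 1003 CPM in the 50 fL libraries (-2.67 ± 0.23, adjusted p = 0.00929). ALD3 shares 49.5% of its 31-base words with its neighbour ALD2, so the counts of the pair may be mixed, and ALD2 fell as well (-2.05 ± 0.23). NQM1, a transaldolase-like enzyme (YGR043C, chromosome VII, 580435 to 581436), had 101, 91.1 and 98.4 CPM in the 55 fL libraries, against 671, 426 and 523 CPM in the 50 fL libraries. It was even at 55 fL, and its change was -2.48 ± 0.20 (adjusted p = 0.00929). DDR2, a small protein induced by DNA damage and other stress (YOL052C-A, chromosome XV, 231570 to 231755), had 37.2, 71.3 and 42.4 CPM at 55 fL and 304, 251 and 278 CPM at 50 fL (-2.47 ± 0.28, adjusted p = 0.0131). In DDR2, 55 fL replicate 2 was the highest of its size and 50 fL replicate 2 the lowest of its size.

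Among the 198 genes that fell, 55 fL replicate 2 was the highest of its size in 133 and 50 fL replicate 2 the lowest of its size in 130. Where both hold, the replicates 2 lie nearest to each other. RTN2, a reticulon of the endoplasmic reticulum (YDL204W, chromosome IV, 94605 to 95786), had 79.7, 181 and 109 CPM at 55 fL, against 728, 653 and 600.5 CPM at 50 fL. Its change was -2.42 ± 0.32 (adjusted p = 0.0194), and -2.81 without both replicates 2. SOL4, a 6-phosphogluconolactonase (YGR248W, chromosome VII, 985972 to 986739), had 20.2, 62.8 and 32.3 CPM at 55 fL and 200.3, 202 and 183 CPM at 50 fL, and MSC1, linked to meiotic recombination (YML128C, chromosome XIII, 15135 to 16676), had 377, 662 and 427 CPM at 55 fL, against 2583, 2072 and 2513 CPM at 50 fL. In both genes 55 fL replicate 2 was the highest of its size, but 50 fL replicate 2 was the lowest of its size only in MSC1. Their changes were -2.35 ± 0.41 for SOL4 (adjusted p = 0.0397) and -2.29 ± 0.25 for MSC1 (adjusted p = 0.0126). GRE1, a hydrophilin induced by osmotic stress (YPL223C, chromosome XVI, 128632 to 129138), had 58.5, 69.1 and 87.2 CPM at 55 fL and 399, 167 and 418 CPM at 50 fL. Here 50 fL replicate 2 stood well below its mates and yet above all 55 fL libraries (-2.19 ± 0.38, adjusted p = 0.0391).

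CTT1, the cytosolic catalase that breaks down hydrogen peroxide (YGR088W, chromosome VII, 654634 to 656322), had 245, 528 and 344 CPM at 55 fL, against 1866, 1231 and 1414 CPM at 50 fL (-2.01 ± 0.32, adjusted p = 0.0296). HSP12, a small membrane-associated heat shock protein (YFL014W, chromosome VI, 107256 to 107585), had 2171, 3832 and 2208 CPM at 55 fL and 9912, 6274 and 11941 CPM at 50 fL. Its change was -1.78 ± 0.33 with an adjusted p of 0.0467, near the threshold, and -2.32 without both replicates 2. UBI4, the polyubiquitin gene of stressed cells (YLL039C, chromosome XII, 64062 to 65207), had 174, 173 and 189.9 CPM at 55 fL, against 584, 482 and 535 CPM at 50 fL, close values within each size (-1.58 ± 0.14, adjusted p = 0.00929). Its units repeat one another, and 25.6% of its 31-base words are repeated. The other falls of the list ran from -1.27 in HOR7 to -2.10 in RTC3, and STF2, a factor tied to the mitochondrial ATP synthase, only just passed (adjusted p = 0.0495).

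The other 7 members did not pass, and the activators were among them. MSN2 had 223, 185 and 177 CPM at 55 fL and 185, 201 and 179 CPM at 50 fL, and MSN4 had 127, 137 and 162 CPM at 55 fL, against 168, 206 and 155 CPM at 50 fL. Their log2 differences were 0.05 ± 0.14 for MSN2 (adjusted p = 0.867) and -0.31 ± 0.17 for MSN4 (adjusted p = 0.349), so the mRNA levels of both regulators overlapped between the sizes. GPX1, a glutathione peroxidase, and PNC1, a nicotinamidase, missed the threshold narrowly, at -1.57 ± 0.31 (adjusted p = 0.0522) and -1.39 ± 0.28 (adjusted p = 0.0534). SOD2, the mitochondrial superoxide dismutase, differed by -0.87 ± 0.30, SPI1 by -1.12 ± 0.32 and TMA10 by -0.94 ± 0.21.

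**Figure D2:**
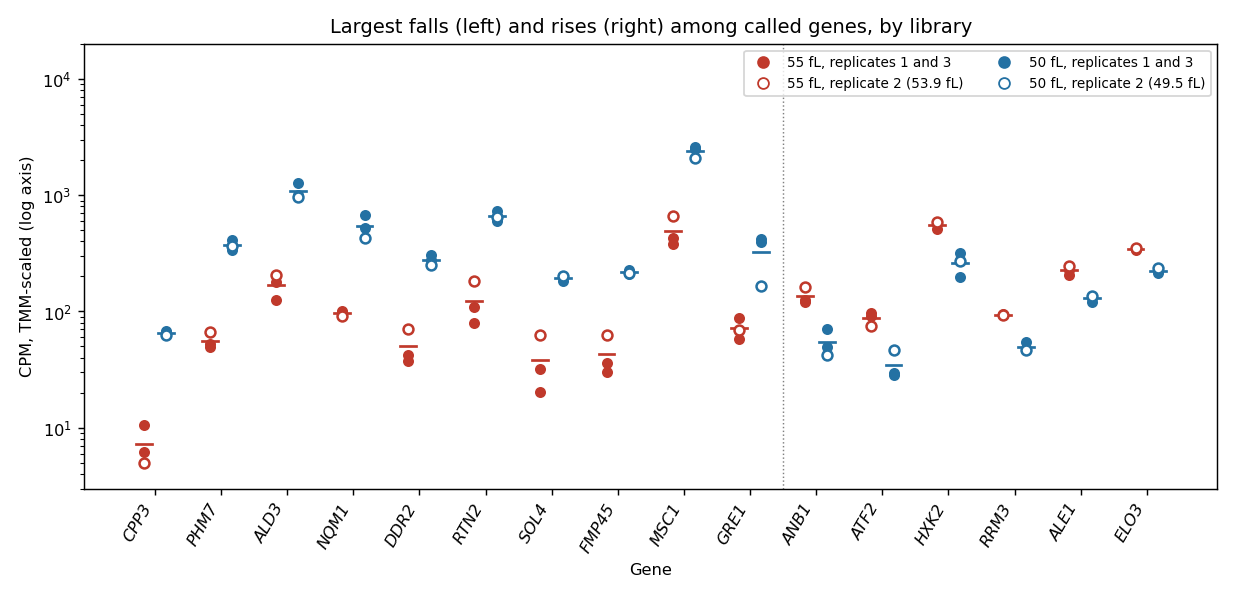
CPM (log axis) in each library for the 10 largest falls and the 6 rises among the called genes that could be named, 55 fL in red at the left of each gene and 50 fL in blue at the right, replicate 2 open, bars at the mean of 3. The colours do not overlap in any of the 16 genes, and for RTN2, SOL4, FMP45 and MSC1 the open red point is the highest of its size.

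The largest fall that could be named was that of CPP3 (YDR034W-B, chromosome IV, 521314 to 521469), with 10.6, 4.99 and 6.15 CPM at 55 fL and 67.7, 63.2 and 66.7 CPM at 50 fL. Its change was -3.18 ± 0.29 (adjusted p = 0.00929), a 9.07-fold difference. FMP45, a membrane protein of the cell cortex in the SUR7 family (YDL222C, chromosome IV, 60872 to 61801), had 30.4, 62.4 and 36.4 CPM at 55 fL, against 229, 215 and 211 CPM at 50 fL (-2.34 ± 0.29, adjusted p = 0.0173).

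Some storage sugar genes fell, on both the making and the breaking side. Of 17 trehalose and glycogen genes 6 fell and 0 rose, where 3.17% of all tested genes fell, and in 12 every 55 fL library lay below every 50 fL library (18.6% of all genes), with a list median of -0.99. TPS1, which makes trehalose 6-phosphate, had 272, 589 and 348 CPM at 55 fL and 1409, 1168 and 1188 CPM at 50 fL (-1.64 ± 0.30, adjusted p = 0.0449). TPS2, which removes that phosphate (YDR074W, chromosome IV, 593893 to 596583), had 267, 448 and 306 CPM at 55 fL, against 1244, 1098 and 1024 CPM at 50 fL. It fell by 1.72 ± 0.22 on the log2 scale (adjusted p = 0.0194). The trehalases, which split trehalose to glucose, fell too. NTH1 had 237, 312 and 265 CPM at 55 fL and 597, 533 and 561 CPM at 50 fL (-1.05 ± 0.15, adjusted p = 0.0215), NTH2 changed by -0.89 ± 0.12 (adjusted p = 0.0194) and the vacuolar ATH1 by -1.49 ± 0.25 (adjusted p = 0.0381). GDB1, the glycogen debranching enzyme (YPR184W, chromosome XVI, 902044 to 906654), had 162, 271 and 242 CPM at 55 fL, against 633, 577 and 615 CPM at 50 fL (-1.43 ± 0.21, adjusted p = 0.0241). With both replicates 2 left out, 11 of the 17 fell (24.0% of all genes) and the list median was -1.22, and leaving out any of replicates 1 and 3 of either size gave a count of 0.

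Chaperone and proteasome genes were lower at 55 fL in most members, but few passed. Of 25 chaperones 2 fell and 0 rose (median -0.55), where 3.17% of all genes fell, and 13 were lower in every 55 fL library than in every 50 fL library, where 18.6% of all genes were. With the replicates 2 left out, 16 of the 25 fell and 5 rose (median -0.77), where 24.0% of all genes fell and 24.1% rose. SSE2, a nucleotide exchange factor for Hsp70 (YBR169C, chromosome II, 573915 to 575996), had 144, 295 and 194 CPM at 55 fL and 714, 527 and 594 CPM at 50 fL (-1.54 ± 0.29, adjusted p = 0.0467). STI1, which links Hsp70 to Hsp90 (YOR027W, chromosome XV, 381053 to 382822), had 335, 366 and 388 CPM at 55 fL, against 678, 559.5 and 618 CPM at 50 fL (-0.77 ± 0.14, adjusted p = 0.041). HSP104, the disaggregase, had 372, 837 and 596 CPM at 55 fL and 1928, 1327 and 1641 CPM at 50 fL without overlap, but its change of -1.44 ± 0.32 did not pass (adjusted p = 0.0649). HSP26, a small heat shock protein, had 237, 729 and 697 CPM at 55 fL, against 1195, 170.4 and 339.5 CPM at 50 fL, and there the sizes overlapped (-0.04 ± 0.76, adjusted p = 0.983). Of 33 proteasome genes 1 fell, near the 3.17% of all genes. It was PRE3, a catalytic core subunit (YJL001W, chromosome X, 435163 to 435926), with 75.8, 86.3 and 84.3 CPM at 55 fL and 141, 127 and 129.6 CPM at 50 fL (-0.69 ± 0.12, adjusted p = 0.0397). A further 26 lay lower in every 55 fL library with changes that did not pass, among them PRE2, another catalytic subunit, at -0.61 ± 0.12 (adjusted p = 0.0532), and the list median was -0.36. With the replicates 2 left out, 12 of the 33 fell and 1 rose (median -0.21).

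Some nutrient lists and the cell wall list had 1 called member each. That share lay at or near the 3.17% of all genes that fell in all but the short list of hexose transporters. No member passed among 25 iron, 24 sulfur and methionine, 22 purine and one-carbon, 22 thiamine and 9 TIR and DAN mannoprotein genes. Nothing about any of these lists follows from the counts of calls. HXT5, a glucose transporter made when growth is slow (YHR096C, chromosome VIII, 294669 to 296447), had 96.9, 135 and 134 CPM at 55 fL, against 561, 359 and 511 CPM at 50 fL (-1.97 ± 0.23, adjusted p = 0.0151). It is also a member of the 21 glucose-repressed genes and was the single called gene of that list and among 13 tested hexose transporters, whose median was -0.09. PUT4, the proline permease, had 30.9, 17.5 and 27.6 CPM at 55 fL and 62.7, 51.2 and 62.03 CPM at 50 fL (-1.21 ± 0.23, adjusted p = 0.0492), 1 of 39 genes of arginine and nitrogen uptake. PHM8, a phosphatase that removes phosphate from nucleotides, had 70.3, 43.5 and 67.5 CPM at 55 fL, against 125, 135 and 168 CPM at 50 fL (-1.24 ± 0.23, adjusted p = 0.0446), 1 of 21 phosphate genes. LYS1, the last enzyme of lysine synthesis, changed by -0.59 ± 0.11 (adjusted p = 0.0467) and was the single call among 47 amino acid synthesis genes. HSP150, a secreted cell wall glycoprotein (YJL159W, chromosome X, 120449 to 121690), had 468, 617 and 629 CPM at 55 fL and 1592, 1522 and 1920.1 CPM at 50 fL (-1.56 ± 0.18, adjusted p = 0.0131), 1 of 33 cell wall genes, and 16.3% of its words are repeated. The cell wall list leaned the other way, with a median of 0.29 and 23 of 33 members above 0. Without overlap, 12 members were higher at 55 fL (8.56% of all genes) and 4 lower (18.6% of all genes). With the replicates 2 left out, 4 rose and 5 fell (median 0.18), below the 24.1% and 24.0% of all genes that rose and fell.

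Only 8 genes rose, and none of the 37 gene lists had more than 1 called rise. ANB1, an eIF5A translation factor gene that Rox1 represses when oxygen and heme are present (YJR047C, chromosome X, 524908 to 525381), had 121, 163 and 127 CPM at 55 fL, against 49.98, 42.4 and 69.99 CPM at 50 fL. The sizes were apart, and the change was 1.34 ± 0.23 (adjusted p = 0.0384). Its close paralog HYP2, known as an abundantly expressed gene, was listed at 0 in all 24 libraries. Reads of HYP2 may have been dropped or counted elsewhere in the deposited table, so the ANB1 counts and their rise are uncertain, and 6.76% of the words of ANB1 are repeated in the genome. AAC3, the ADP/ATP carrier used without oxygen, had 11.6, 15.8 and 11.5 CPM at 55 fL and 6.38, 4.54 and 6.32 CPM at 50 fL (1.18 ± 0.22, adjusted p = 0.0449). ATF2, an alcohol acetyltransferase that also acetylates sterols (YGR177C, chromosome VII, 848829 to 850436), had 97.1, 75.2 and 91.3 CPM at 55 fL, against 28.6, 46.6 and 29.8 CPM at 50 fL (1.33 ± 0.23, adjusted p = 0.0391). In ATF2 the replicates 2 were the lowest at 55 fL and the highest at 50 fL, so they stood nearest to each other. HXK2, the main hexokinase of cells growing on glucose (YGL253W, chromosome VII, 23935 to 25395), had 507, 594 and 561 CPM at 55 fL and 321, 269 and 198 CPM at 50 fL (1.08 ± 0.20, adjusted p = 0.0467).

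RRM3, a DNA helicase that helps replication forks past bound proteins (YHR031C, chromosome VIII, 170799 to 172970), had 95.2, 94.01 and 92.6 CPM at 55 fL, against 54.3, 46.8 and 47.4 CPM at 50 fL. Its libraries were close within each size, and the change was 0.92 ± 0.12 (adjusted p = 0.0193). A pair of enzymes of membrane lipids rose by less. ALE1, a lysophospholipid acyltransferase (YOR175C, chromosome XV, 659815 to 661674), had 206, 245 and 229 CPM at 55 fL and 130.4, 137 and 121 CPM at 50 fL (0.81 ± 0.13, adjusted p = 0.0316). ELO3, which elongates fatty acids to the very long chains of sphingolipids (YLR372W, chromosome XII, 867354 to 868391), had 345, 353 and 341 CPM at 55 fL, against 216, 236 and 223 CPM at 50 fL (0.62 ± 0.12, adjusted p = 0.0469). RNP1, the eighth, had a mean of 0.925 ± 0.107 CPM at 55 fL and 0.191 ± 0.0825 CPM at 50 fL (SD, n = 3 each), near the 0.186 CPM that a count of 0 allows. AAC3 and RNP1 lie under the mean of 10 CPM set for named genes and are given because they complete the 8.

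The next smallest p-values upward belonged to 4 genes that did not pass. TIR1, a cell wall mannoprotein of cold and low oxygen (YER011W, chromosome V, 175248 to 176012), had 349, 1158 and 525 CPM at 55 fL and 162, 104 and 117 CPM at 50 fL. The difference of 2.40 ± 0.47 came with a wide spread at 55 fL (adjusted p = 0.0519), and 17.0% of its words are repeated. FET4, a low-affinity iron transporter, had 339, 284 and 321 CPM at 55 fL, against 153, 207 and 152 CPM at 50 fL (0.88 ± 0.17, adjusted p = 0.0519). LRG1, a GTPase activator for Rho1, differed by 0.70 ± 0.14 and ALG5, a glycosylation enzyme, by 0.66 ± 0.13 (adjusted p = 0.0519 and 0.052). Both were higher in every 55 fL library than in every 50 fL library.

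In 8 enzyme pairs the form tied to stress or slow growth fell and its partner did not pass with all 6 libraries. The pairs were picked after their values were seen, and the differences between partners were not tested. NQM1 fell, whereas TAL1, the main transaldolase, had 470.5, 727 and 485 CPM at 55 fL and 508, 444 and 557 CPM at 50 fL (0.16 ± 0.21, adjusted p = 0.701). TKL2, the minor transketolase, had 43.5, 51.8 and 69.2 CPM at 55 fL, against 302, 193 and 190.3 CPM at 50 fL (-2.06 ± 0.27, adjusted p = 0.0194). Its partner TKL1 had 1398, 1353 and 1282 CPM at 55 fL and 887, 1079 and 790.2 CPM at 50 fL, higher in every 55 fL library without passing (0.55 ± 0.15, adjusted p = 0.11). GND2, the minor 6-phosphogluconate dehydrogenase, changed by -2.01 ± 0.26 (adjusted p = 0.0194) and GND1 by 0.66 ± 0.29 (adjusted p = 0.271). SOL3, the partner of SOL4, differed by 0.11 ± 0.17. Those pairs together cover 4 steps of the pentose phosphate pathway, which makes NADPH and pentoses. Some partners passed when the replicates 2 were left out, with TKL1 at 0.68 (adjusted p = 0.00163) and GND1 at 0.85 (adjusted p = 0.00132). Partners could also lie lower: TPS3, a regulatory subunit related to TPS2, was below in every 55 fL library without passing (-0.67 ± 0.21, adjusted p = 0.137) and fell without the replicates 2 (-0.94).

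The same contrast appeared in respiration and glycolysis. CYC7, the cytochrome c isoform of low oxygen and stress, had 8.55, 20.96 and 10.96 CPM at 55 fL, against 65.9, 63.4 and 47.9 CPM at 50 fL (-2.13 ± 0.35, adjusted p = 0.0348), whereas CYC1, the main isoform, overlapped (0.48 ± 0.32, adjusted p = 0.46). NDE2, an external NADH dehydrogenase, changed by -2.07 ± 0.27 (adjusted p = 0.0194) and NDE1 by 0.49 ± 0.49 (adjusted p = 0.624). PYK2, the pyruvate kinase of low glycolytic flux (YOR347C, chromosome XV, 984942 to 986462), had 22.1, 28.4 and 29.99 CPM at 55 fL and 56.95, 49.99 and 65.7 CPM at 50 fL (-1.10 ± 0.17, adjusted p = 0.0277), and CDC19, the main pyruvate kinase, had 4303, 7105 and 4848 CPM at 55 fL, against 4986, 3649 and 4472 CPM at 50 fL (0.31 ± 0.23, adjusted p = 0.503). SSE1, the constitutive partner of SSE2, differed by 0.07 ± 0.22. With the replicates 2 left out NDE1 (1.39, adjusted p = 0.000127) and SSE1 (0.30, adjusted p = 0.0491) passed as higher. At the hexokinase step HXK2 rose, while HXK1 had 214, 583 and 425 CPM at 55 fL and 1129.5, 975 and 748 CPM at 50 fL and glucokinase GLK1 had 279.9, 752 and 465 CPM at 55 fL, against 1579.6, 1248 and 1508 CPM at 50 fL. HXK1 (-1.22 ± 0.37, adjusted p = 0.135) and GLK1 (-1.53 ± 0.36, adjusted p = 0.0734) were lower in every 55 fL library but did not pass. GLK1 overlaps YCL042W on the same strand, and with the replicates 2 left out it fell by 2.05 on the log2 scale. PET9, the main partner of AAC3, differed by -0.49 ± 0.14 (adjusted p = 0.121), also without overlap, and fell without the replicates 2 (-0.63, adjusted p = 0.00136).

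**Figure D3:**
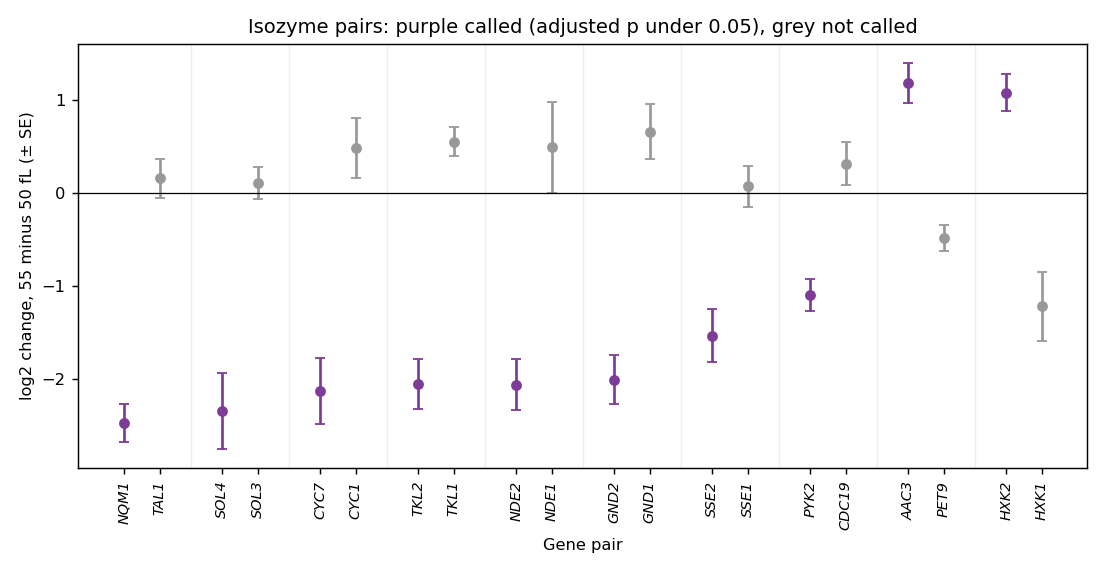
Log2 change at 55 relative to 50 fL with its standard error for 10 enzyme pairs, purple where called and grey where not. In the first 8 pairs, with all 6 libraries, the left gene fell, between -2.48 in NQM1 and -1.10 in PYK2, and the right gene did not pass; AAC3 and HXK2 rose and their partners lay below 0 without passing.

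Cell cycle genes varied widely between single libraries, and no member of the cell cycle lists passed. Histone genes had a median of 1.29, and 8 of 9 were higher in every 55 fL library than in every 50 fL library (8.56% of all genes). HTA2, a histone H2A gene (YBL003C, chromosome II, 235394 to 235792), had 201, 387 and 184 CPM at 55 fL and 157, 22.98 and 73.4 CPM at 50 fL. The span within each size was wide, and the change of 1.60 ± 0.68 did not pass (adjusted p = 0.251). HTB1, an H2B gene (YDR224C, chromosome IV, 914317 to 914712), had 513, 990.4 and 485 CPM at 55 fL, against 399.8, 148 and 271 CPM at 50 fL (1.28 ± 0.44, adjusted p = 0.171). In both genes 55 fL replicate 2 was the highest of the 6 libraries and 50 fL replicate 2 the lowest. Near-identical copies limit some of these counts, since 40.8% of the words of HHF1 and 12.5% of those of HTA2 are repeated. Without both replicates 2 the histone median was 0.55 and 2 of 9 rose (24.1% of all genes), and with all 24 libraries in 1 fit, which called 21.7% of all genes, 8 of 9 rose, where 7.58% of all genes rose.

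The CLB2 cluster, genes for mitosis and cytokinesis, had a median of 1.04, 25 of 26 members above 0 and 12 higher without overlap (8.56% of all genes). CLB2, a mitotic cyclin (YPR119W, chromosome XVI, 771653 to 773128), had 57.5, 126 and 96.4 CPM at 55 fL and 55.3, 11.9 and 8.65 CPM at 50 fL. The lowest 55 fL library and the highest 50 fL library were nearly level, and the change of 1.88 ± 0.74 did not pass (adjusted p = 0.223). CLB1, its partner, had 165, 461 and 294 CPM at 55 fL, against 154, 23.04 and 18.4 CPM at 50 fL (2.23 ± 0.90, adjusted p = 0.23). CDC5, the polo kinase (YMR001C, chromosome XIII, 269019 to 271136), had 100.3, 199 and 133 CPM at 55 fL and 85.3, 28.4 and 30.4 CPM at 50 fL (1.58 ± 0.50, adjusted p = 0.144), and SWI5, a factor for genes of late mitosis, had 58.03, 148 and 90.2 CPM at 55 fL, against 53.3, 16.2 and 6.57 CPM at 50 fL (1.96 ± 0.76, adjusted p = 0.22). In all 4 genes 50 fL replicate 1 stood far above its 2 mates. FKH1, a forkhead factor of this cluster, had 75.6, 131 and 79.1 CPM at 55 fL and 56.5, 28.1 and 27.7 CPM at 50 fL, without overlap (1.35 ± 0.36, adjusted p = 0.104). With all 24 libraries in 1 fit, where the 8 sizes share 1 estimate of the spread, 21 of the 26 rose (7.58% of all genes). With the replicates 2 left out, 2 of the 26 rose and 1 fell (median 0.74), below the 24.1% of all genes that rose in that set.

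G1/S genes lay on both sides of 0. Of 31 regulators and budding genes 0 passed, with a median of -0.04, and the mean over the list, relative to the average of the 24 libraries, stood at 0.23, 0.62 and 0.14 at 55 fL and at 0.62, -0.77 and 0.48 at 50 fL. CLN2, a G1 cyclin that starts budding (YPL256C, chromosome XVI, 64977 to 66614), had 127, 149 and 109 CPM at 55 fL, against 199, 43.7 and 185 CPM at 50 fL (-0.15 ± 0.53, adjusted p = 0.885), and CLN1 had 149, 253 and 159 CPM at 55 fL and 265, 70.9 and 254 CPM at 50 fL. Replicate 2 of 50 fL was the lowest of the 6 in both. RNR1, the large subunit of ribonucleotide reductase (YER070W, chromosome V, 298950 to 301616), had 1178, 1539 and 1030.1 CPM at 55 fL, against 1788, 397 and 1902 CPM at 50 fL (-0.13 ± 0.55, adjusted p = 0.911). SWI4, the DNA-binding subunit of the G1 factor SBF, had 105, 146 and 114 CPM at 55 fL and 276, 139 and 332 CPM at 50 fL (-1.03 ± 0.33, adjusted p = 0.152), so 55 fL replicate 2 overlapped 50 fL replicate 2. CLN3, the upstream G1 cyclin, differed by -0.14 ± 0.25, the repressor WHI5 by 0.20 ± 0.30, the kinase CDC28 by -0.11 ± 0.11 and the inhibitor SIC1 by 0.02 ± 0.21. None of these 4 passed. When the replicates 2 were left out, 18 of the 31 fell and 4 rose (median -0.57), and 25 of 45 DNA replication genes fell and 2 rose (median -0.46), where 24.0% and 24.1% of all genes fell and rose.

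**Figure D4:**
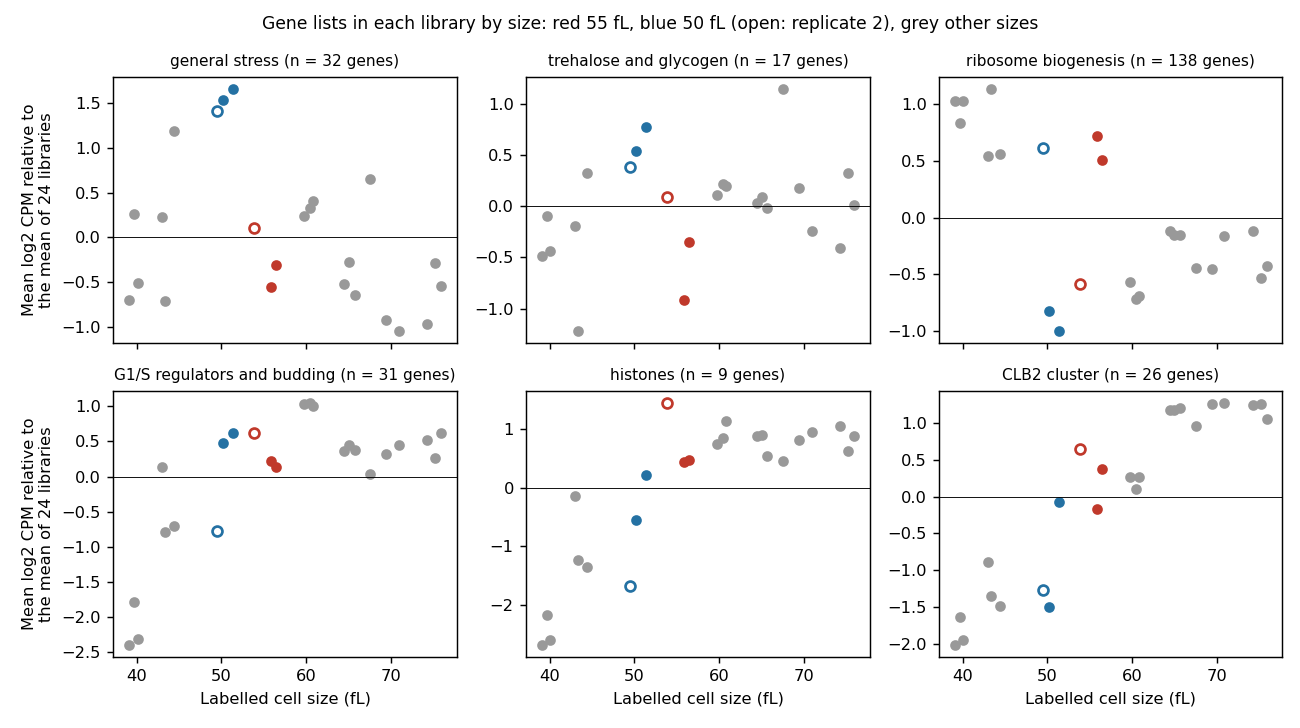
Mean log2 CPM of 6 gene lists in each of the 24 libraries, relative to the mean of the 24, against labelled cell size in fL, with 55 fL in red, 50 fL in blue, replicate 2 open and the other sizes grey. For general stress the 3 blue points are the highest of all; for ribosome biogenesis the open points change sides, the open red one at -0.59 and the open blue one at 0.61.

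Ribosome biogenesis genes changed sides in the replicates 2. Of 138 genes that build ribosomes 0 passed, all 138 had a log2 difference above 0, and all 138 overlapped between the sizes (median 0.53). The list mean stood at 0.72, -0.59 and 0.50 in the 55 fL libraries and at -1.0005, 0.61 and -0.82 in the 50 fL libraries. NSR1, a nucleolar protein for rRNA processing (YGR159C, chromosome VII, 806412 to 807656), had 1013, 287 and 787 CPM at 55 fL, against 118, 961 and 129.7 CPM at 50 fL (0.79 ± 0.91, adjusted p = 0.663). NOP58, a core protein of small nucleolar RNPs (YOR310C, chromosome XV, 896825 to 898360), had 677, 319.8 and 583 CPM at 55 fL and 248, 509 and 267 CPM at 50 fL (0.63 ± 0.38, adjusted p = 0.421), and CBF5, the pseudouridine synthase, had 671, 342 and 606 CPM at 55 fL, against 251, 534 and 277 CPM at 50 fL. RPA190, the largest subunit of RNA polymerase I (YOR341W, chromosome XV, 960987 to 965981), had 1924, 887 and 1745 CPM at 55 fL and 688, 1565 and 777 CPM at 50 fL (0.59 ± 0.42, adjusted p = 0.483). Without both replicates 2 all 138 rose, with a median of 1.51, and 25 of 27 RNA polymerase I and III genes rose (median 1.11), where 24.1% of all genes rose. Cytosolic ribosomal protein genes differed little in either set, with medians of 0.05 with all libraries and -0.10 without both replicates 2. Of 138 tested 0 were called with all libraries. Without the replicates 2, 11 fell and 0 rose, below the 24.0% and 24.1% of all genes that fell and rose. YEF3, a translation elongation factor, had 10956, 7512 and 10273 CPM at 55 fL, against 5186, 8230.0 and 5472 CPM at 50 fL (0.61 ± 0.24, adjusted p = 0.223).

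Respiratory genes lay mostly below 0 and also changed sides in the replicates 2. Of 15 citric acid cycle genes 0 passed and 14 lay below 0 (median -0.51), and of 33 nuclear genes of oxidative phosphorylation 0 passed and 30 lay below 0 (median -0.37). Every 55 fL library lay below every 50 fL library in 3 of the 15 and 5 of the 33 (18.6% of all genes). CIT1, KGD2 and QCR8 are among these. The citric acid cycle mean, relative to the 24 libraries, was 0.35 in 55 fL replicate 2 and 0.05 in 50 fL replicate 2. For oxidative phosphorylation these means were 0.18 and -0.05. CIT1, citrate synthase (YNR001C, chromosome XIV, 629622 to 631061), had 135, 327 and 204 CPM at 55 fL and 489, 356 and 464 CPM at 50 fL (-0.98 ± 0.33, adjusted p = 0.167). KGD2, of the 2-oxoglutarate dehydrogenase, had 119.8, 204 and 153 CPM at 55 fL, against 302, 219.8 and 280.0 CPM at 50 fL (-0.75 ± 0.24, adjusted p = 0.143), and QCR8, of the cytochrome bc1 complex, had 44.2, 74.4 and 53.9 CPM at 55 fL and 98.004, 89.02 and 93.6 CPM at 50 fL (-0.70 ± 0.21, adjusted p = 0.124). Leaving out both replicates 2, all 15 citric acid cycle genes fell (median -0.92) and 30 of 33 oxidative phosphorylation genes fell (median -0.76), where 24.0% of all genes fell. Among lipid genes, OLE1, the fatty acid desaturase, had 3146, 2214 and 3511 CPM at 55 fL, against 777, 2598 and 1065 CPM at 50 fL (1.00 ± 0.47, adjusted p = 0.292), and FAS1, of fatty acid synthase, had 6513, 5504 and 6525 CPM at 55 fL and 2769, 5687 and 3421 CPM at 50 fL. Both were lowest in 50 fL replicates 1 and 3. SUR2, a sphingolipid hydroxylase, differed by 0.74 ± 0.15 and ERG27, of ergosterol synthesis, by 0.47 ± 0.11, without overlap and without passing (adjusted p = 0.0545 and 0.0722).

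**Figure D5:**
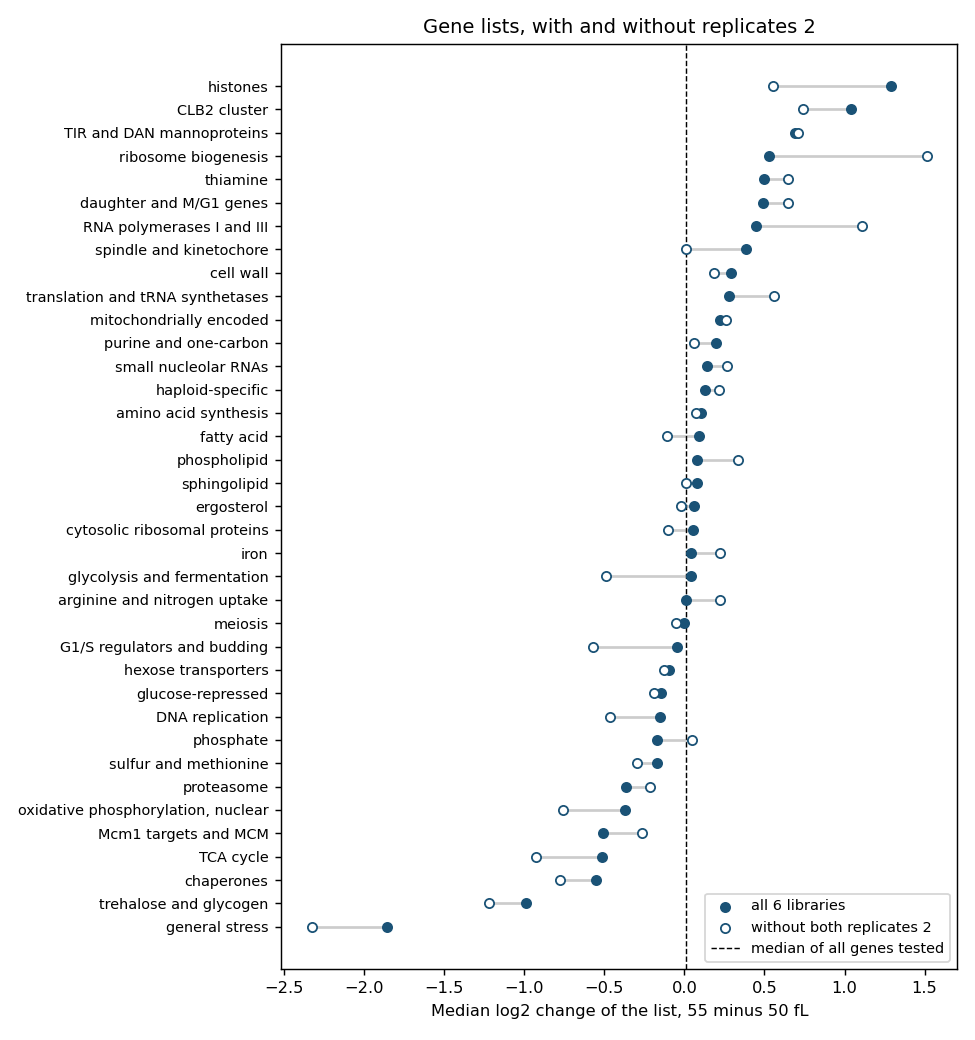
Median log2 change at 55 relative to 50 fL of the 37 gene lists, filled with all 6 libraries and open without both replicates 2, with a dashed line at the median of all genes (0.01). General stress is lowest in both sets (-1.86 and -2.32), while ribosome biogenesis moves the farthest between the sets, 0.53 filled and 1.51 open.

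The genes furthest off in each replicate 2 name what set those libraries apart. In 55 fL replicate 2 GPM2, TDH1 and WSC4 were high and THI4, HXT2 and PHO89 low. TDH1, a glyceraldehyde phosphate dehydrogenase, had 1592, 6085 and 2797 CPM at 55 fL, against 2992, 1065 and 1628 CPM at 50 fL. WSC4, of the WSC family of surface sensors, had 81.3, 399 and 201 CPM at 55 fL and 147, 53.6 and 70.7 CPM at 50 fL. In 50 fL replicate 2 HXT2, PHO89, DBP2, PRM7 and NSR1 were high and CRH1, MCD1, PRY2, TOS4 and RNR3 low. HXT2, a glucose transporter, had 776, 183 and 688 CPM at 55 fL, against 34.3, 583 and 30.9 CPM at 50 fL, so that replicate 2 was low at 55 fL and high at 50 fL. DBP2, an RNA helicase, had 1573, 410.1 and 1262 CPM at 55 fL and 105, 1567 and 160.1 CPM at 50 fL. MCD1, the cohesin subunit cut at anaphase, had 127, 162 and 121 CPM at 55 fL, against 219.9, 40.96 and 208 CPM at 50 fL. None of the genes of this paragraph passed between the sizes.

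Over the 8 sizes the genes that fell had their peak at 50 fL. The highest of the 8 group means was at 50 fL in 183 of the 198, and 196 of 198 had a lower mean at 45 fL than at 50 fL. At 60 fL the mean was above that at 55 fL in 187 of 198 and below that at 50 fL in 198 of 198. Of all 6251 tested genes, 1151 had their highest group mean at 50 fL. The 50 and 55 fL libraries are part of both the rule for a fall and these orderings. A high rank of 50 fL, and a 60 fL mean above that at 55 fL and below that at 50 fL, therefore follow in part from the choice. HSP12 averaged CPM values of 1279.9, 3757, 9624, 2803, 5278, 1268, 1270.3 and 2023 from 40 to 75 fL in steps of 5. ALD3 averaged CPM values of 65.1, 313, 1109, 174, 349.5, 125, 129 and 99.8 from 40 to 75 fL in steps of 5. Of the rises, ANB1 averaged CPM values of 28.3, 59.5, 55.5, 140.2, 84.99, 220.1, 218 and 85.3 from 40 to 75 fL in steps of 5, and HXK2 averaged CPM values of 259, 271, 269.8, 568, 546, 706, 787 and 774 from 40 to 75 fL in steps of 5. HXK2 lay at 546 CPM or above at each size from 55 to 75 fL and at 271 CPM or below at the smaller sizes. ANB1 was lower again at 60 and 75 fL than at 55 fL.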

How the data were processed

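The authors deposited read counts per feature and TPM (a length-scaled share of transcripts) for 24 libraries. Reads were counted with featureCounts of Subread on build R64, per the submitters' processing notes. The sources used here give no aligner, version, strand setting or treatment of multi-mapping reads. Samples were grouped by labelled size. The 6 libraries of 55 and 50 fL were fitted with edgeR 4.0.16 (R 4.3.3) by the robust quasi-likelihood F test with TMM factors and filterByExpr, with p-values adjusted by Benjamini-Hochberg over all genes tested. A gene passed at an adjusted p under 0.05. Each SE was taken from the log2 change and its F statistic (change over root F). The test was checked on simulated counts whose spread was smaller than that of the 6 libraries and in which no replicate stood apart. That check does not show how the test behaves on replicates like these. Alternatives used DESeq2 1.42.0, limma 3.58.1, TPM plus 1 or 0.1, other factors and filters, and left-out libraries. Those that left out 1 library were rerun with voom and DESeq2 after the data were seen. Lists were described by counts and medians, without a test. Named genes are the 10 largest non-overlapping changes in each direction among genes that have a symbol and average 10 CPM or more, filled by smallest p, landmark genes, up to 4 members of each list and the 5 highest and 5 lowest genes of each replicate 2. Genes named in pairs, other list members and those of the closing section were chosen after their values were seen. The members and lists were chosen with earlier results of these data known. Positions came from the RefSeq annotation of R64, matched for 5953 features by locus tag and 122 by symbol, with 957 without a position. Depth was similar over the 6 libraries. Counting error weighs more in genes of few counts, such as RNP1.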

Additional observations from a re-analysis of the deposited data

How the results depend on the processing

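All 206 called genes kept the sign of their change under every alternative that tested them, but the number past the threshold varied. Their libraries did not overlap between the sizes, so leaving libraries out could hardly turn a sign. It was 206 (8 up, 198 down) as reported, 1390 (485 up, 905 down) with all 24 libraries in 1 fit, 135 (7 up, 128 down) with RLE factors, 122 (5 up, 117 down) with upper quartile factors and 294 (13 up, 281 down) with library totals alone. DESeq2 gave 719 (225 up, 494 down), limma-voom 235 (13 up, 222 down) and voom with sample quality weights 3033 (1515 up, 1518 down). Limma on TPM plus 1 gave 278 (15 up), on TPM plus 0.1 275 (15 up), and on TPM plus 1 without a filter 257 (13 up). With labelled size as a continuous term 0 passed in either direction. Leaving out both replicates 2, 3021 passed (1515 up, 1506 down). Leaving out 1 library at a time gave 0 to 352 calls, 0 to 78 up and 0 to 330 down: 1 without 55 fL replicate 1, 342 without 55 fL replicate 2, 0 without 55 fL replicate 3, 0 without 50 fL replicate 1, 352 without 50 fL replicate 2 and 0 without 50 fL replicate 3. Shares of 3 RNA classes turned direction between counts and TPM. With TPM the difference at 55 minus 50 fL was -0.438 percentage points for all other features (0.0137 with counts), 0.0393 for small nuclear and other structured RNA (-0.0930 with counts) and 0.246 for small nucleolar RNA (-0.0269 with counts), and no class could pass with 3 libraries a size. The cause of these shifts was not tested. No paired analysis was possible because the labels carry no replicate numbers. Depth, at 16103753 counts or more, limits only the lowest genes.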

Other observations

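The genes given here were picked from the 198 falls after their values were seen, so they are single genes and say nothing of how other genes of like function moved. AQY1, an aquaporin, had 11.2, 12.9 and 12.99 CPM at 55 fL and 29.3, 27.1 and 39.04 CPM at 50 fL (-1.36 ± 0.18, adjusted p = 0.0194). Eisosomes are furrows of the plasma membrane, and both PIL1 and LSP1, which encode their core proteins, fell. PIL1 had 596, 576 and 647 CPM at 55 fL, against 1158, 1075 and 1237 CPM at 50 fL (-0.93 ± 0.13, adjusted p = 0.0195), and LSP1 had 416, 429 and 424 CPM at 55 fL and 1094, 1146 and 1115 CPM at 50 fL (-1.40 ± 0.11, adjusted p = 0.00929). PEP4, a vacuolar protease that activates other vacuolar enzymes, had 715, 781 and 677 CPM at 55 fL, against 1676, 1333 and 1932 CPM at 50 fL (-1.18 ± 0.17), and AMS1, an alpha-mannosidase brought in by selective autophagy, had 99.5, 188 and 135 CPM at 55 fL and 522, 385 and 517 CPM at 50 fL (-1.75 ± 0.27). Autophagy genes among the falls were ATG8, which coats the forming membrane (-1.33 ± 0.21), the kinase gene ATG1 (-1.08 ± 0.13), the mitophagy gene ATG33 (-1.35 ± 0.22) and ATG34 (-1.55 ± 0.28), a receptor for AMS1. Each of these lay lower in all 3 libraries of 55 fL than in all 3 of 50 fL.

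Several genes against oxidants were among the falls and others were not: SOD2 and GPX1 did not pass, nor did CTA1, the peroxisomal catalase, which overlapped between the sizes (0.20 ± 0.30, adjusted p = 0.732). SOD1, the cytosolic superoxide dismutase, had 355, 326 and 355 CPM at 55 fL, against 748, 763 and 826 CPM at 50 fL (-1.17 ± 0.12, adjusted p = 0.0109). AHP1, a peroxiredoxin, had 255.8, 379 and 288 CPM at 55 fL and 938, 818 and 747 CPM at 50 fL (-1.44 ± 0.19, adjusted p = 0.0194). GRX2, a glutaredoxin, changed by -1.57 ± 0.27, but it overlaps EMI1 in the annotation and the strand setting of the counts is not given. CCP1, the mitochondrial cytochrome c peroxidase, changed by -0.95 ± 0.17 and TRX3, the mitochondrial thioredoxin, by -1.16 ± 0.19. GUT2, the mitochondrial glycerol 3-phosphate dehydrogenase, had 110.5, 93.7 and 109 CPM at 55 fL, against 286, 304 and 276 CPM at 50 fL (-1.46 ± 0.13), and DAK1, a dihydroxyacetone kinase, changed by -1.42 ± 0.26. Genes of the protein kinase A pathway were also present: BCY1, its inhibitory subunit, had 126, 146 and 139 CPM at 55 fL and 246, 246 and 252 CPM at 50 fL (-0.85 ± 0.12, adjusted p = 0.0227), and YAK1, a kinase that opposes growth, had 94.2, 97.1 and 102 CPM at 55 fL, against 196, 199 and 181 CPM at 50 fL (-0.97 ± 0.12, adjusted p = 0.0161), although YAK1 overlaps IRC9 on the same strand, so their counts may be mixed.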
